A study of Mus musculus with 9 samples.

Results

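The comparison described here is that of livers from mice given AdipoRon with livers from mice given vehicle, 6 of the 9 libraries of the series. The members were chosen by the treatment in the sample labels alone: 3 libraries labelled vehicle and 3 labelled AdipoRon. All mice were of the C57BL/6 strain. Vehicle (PBS) or AdipoRon was injected 2 times a day for 5 days and liver was then frozen and its total RNA sequenced. The labels print a dose of 5 mg/kg beside PBS and the compounds alike, so the dose of AdipoRon rests on a sentence that cannot be literal for the vehicle. The 3 remaining libraries came from livers of C57BL/6 mice given AdipoRonPEG5, a PEGylated analog, on the same schedule and printed dose, and serve to ask where the analog differed from its parent. Age, sex, diet and whether each library came from its own animal are not given in the labels. If they were not separate animals, the p-values measure technical spread only.

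AdipoRon is an orally active small molecule that binds the adiponectin receptors AdipoR1 and AdipoR2. In hepatocytes these receptors are known for acting through AMP-activated protein kinase, PPAR-alpha and a ceramidase activity of the receptor itself, which favour fatty acid oxidation and lower ceramide and glucose output. Liver also holds Kupffer cells, the resident macrophages of the sinusoids, which take up particles, bacteria and old red cells and depend on signalling through the CSF1 receptor. Interferon-stimulated genes are transcribed after type I or type II interferon reaches STAT proteins, and the liver's sex-biased program follows growth hormone acting through STAT5.

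Library totals were 39473195 reads in vehicle 1 and 13942322 to 18508950 in the other 8 libraries, so that a floor of 3 counts lay between 0.076 and 0.215 CPM (counts scaled to library size). The 7 tested hepatocyte markers summed to 91185 to 101894 CPM in vehicle and 79569 to 87905 CPM in AdipoRon livers. Of 6 skeletal muscle markers 5 were at 0 in all vehicle and AdipoRon libraries. Vehicle 3 stood apart in acute phase genes: Saa1, a serum amyloid of the acute phase, was at 4959 CPM there, against 45.4 and 45.1 CPM in vehicles 1 and 2 and 152, 497 and 140.1 CPM with AdipoRon. Of 29 acute phase genes 0 passed with edgeR (2 at an unadjusted p under 0.05, 0 by DESeq2, 0 by limma-voom), at a median log2 fold change of -0.37 (AdipoRon minus vehicle), and their summed level was 60762 CPM in vehicle 3 against 20953 to 28166 CPM in the other vehicle and AdipoRon libraries. Without vehicle 3 this median turned to 0.17 with 1 member called higher, and without vehicle 3 and AdipoRonPEG5 1 to 0.17 with 6 called higher.

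Of 13151 genes tested, 684 (5.2%) differed between AdipoRon and vehicle at an edgeR Benjamini-Hochberg adjusted p under 0.05 (325 with the 2 groups alone in the fit), and 2884 (21.9%) had an unadjusted p under 0.05. The 684 divided into 500 that rose (3.8% of tested genes) and 184 that fell (1.4%). In all 500 rises and all 184 falls the 2 groups did not overlap, so a lack of overlap does not set any called gene apart. The rises were the larger changes: their median log2 fold change was 1.07 and 270 of them reached a fold of 2, whereas the median of the falls was -0.39 and 13 of them reached a fold of 2. Genes that rose lay lower, at a median of 6.65 CPM against 47.7 CPM for those that fell. Over all tested genes the median log2 fold change was 0.0057, with quartiles of -0.15 and 0.20. Without vehicle 3 the calls numbered 624, and with vehicle 3 and AdipoRonPEG5 1 both left out 586. With total-count scaling in place of the TMM factors the median of all genes moved to 0.10 and the share of higher calls from 73.1% to 93.2% (883 higher and 64 lower). Leaving out vehicle 2 gave the fewest calls, 250, and 175 of the 684 (151 higher, 24 lower) remained called without each of the 6 libraries in turn.

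**Figure D1:**
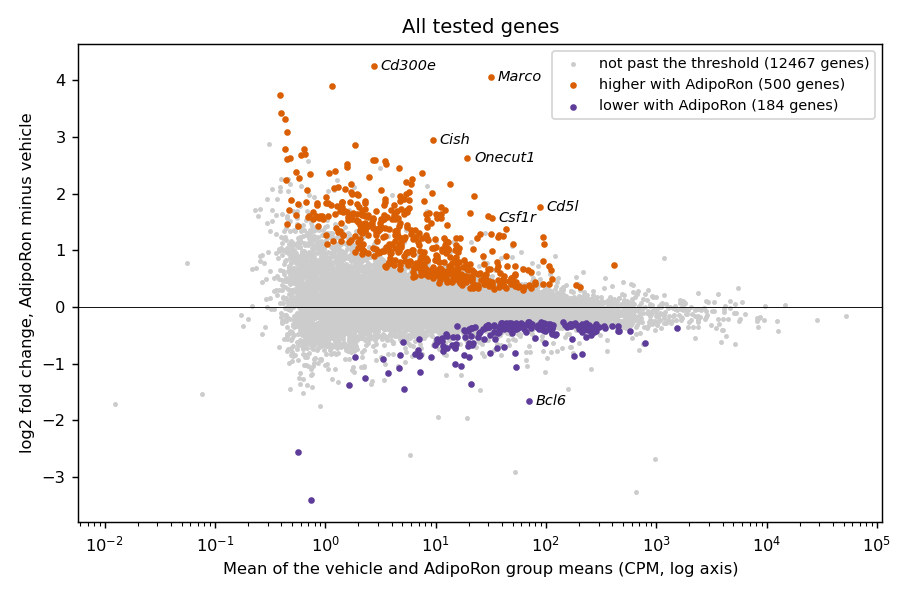
Log2 fold change of AdipoRon minus vehicle (vertical axis) against the mean of both group means in CPM (horizontal log axis) for 13151 tested genes, 1 point per gene. The 500 higher calls reach above 4 (Cd300e, Marco), while among the 184 lower calls 13 lie beyond a fold of 2, Bcl6 among them.

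Genes of macrophages and Kupffer cells rose together. Of the 19 tested members of that list, 16 passed the test and all 16 rose (84.2%, against 3.8% of all tested genes), and the median log2 fold change over the 19 was 1.28, against 0.0057 over all genes. The called members ran from Laptm5, a lysosomal membrane protein of leukocytes, at 2.14-fold to Marco at 16.6-fold. Leaving out 1 library gave 12 calls without vehicle 1, 11 without vehicle 2, 17 without vehicle 3 or AdipoRon 3, and 15 without AdipoRon 1 or AdipoRon 2. In bulk liver, more macrophages and more RNA of these genes per macrophage cannot be told apart. The summed level of the list was 357 to 444 CPM in vehicle and 691 to 1141 CPM in AdipoRon livers, with no overlap.

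The promoters of 3 of the genes are shown because macrophage promoters are known for binding of the transcription factor PU.1. Each window is the 250 bases before the annotated start, from RefSeq on GRCm38.p6, written 5′ to 3′ on the gene's strand. Capitals mark the motif GAGGAAG, or its complement CTTCCTC, the only letters searched.
Marco, chr1:120505025-120505274, minus strand: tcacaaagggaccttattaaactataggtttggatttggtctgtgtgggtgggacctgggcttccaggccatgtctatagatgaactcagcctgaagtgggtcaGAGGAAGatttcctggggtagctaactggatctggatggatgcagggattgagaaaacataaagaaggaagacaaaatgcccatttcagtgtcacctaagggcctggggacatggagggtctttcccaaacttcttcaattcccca
Cd5l, chr3:87357631-87357880, plus strand: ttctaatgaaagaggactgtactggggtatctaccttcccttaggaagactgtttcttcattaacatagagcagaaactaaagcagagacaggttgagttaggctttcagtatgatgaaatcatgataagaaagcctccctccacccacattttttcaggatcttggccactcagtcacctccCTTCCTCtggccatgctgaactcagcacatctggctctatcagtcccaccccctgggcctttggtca
C1qc, chr4:136892915-136893164, minus strand: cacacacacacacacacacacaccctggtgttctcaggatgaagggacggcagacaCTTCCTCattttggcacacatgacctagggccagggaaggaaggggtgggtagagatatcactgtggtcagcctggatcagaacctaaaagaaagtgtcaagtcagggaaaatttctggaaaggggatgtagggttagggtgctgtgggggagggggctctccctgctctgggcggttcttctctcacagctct
Of the 16 called members, 12 had a window in the reference table, and 4 of the 12 held the motif on either strand, against 10.4% of 27025 windows. The 3 windows shown are among these 4 and do not stand for the rest of the 12. A match describes these letters only.

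Marco, the scavenger receptor whose window is the first of these, was at 3.26, 2.54 and 5.28 CPM in the 3 vehicle libraries and 87.2, 51.4 and 41.2 CPM with AdipoRon. The lowest AdipoRon library stood far above the highest vehicle library (log2 fold change 4.05 ± 0.31 (SE, n = 3), edgeR adjusted p = 0.000389). Cd5l, a secreted scavenger receptor protein of Kupffer cells, went from 37.99, 35.3 and 47.01 CPM in vehicle to 183, 127 and 97.7 CPM with AdipoRon (1.77 ± 0.19, edgeR adjusted p = 0.0019). Timd4, the phosphatidylserine receptor of resident Kupffer cells, went from 2.29, 2.54 and 2.83 CPM in vehicle to 10.2, 6.83 and 6.56 CPM with AdipoRon (1.64 ± 0.22, edgeR adjusted p = 0.00363). In all 3 genes AdipoRon 1 was the highest of the 6 libraries, as it was among AdipoRon libraries in all 16 called members of the list and in 306 of all 500 rises.

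Emr1, which encodes the F4/80 antigen, was at 4.73, 4.41 and 5.58 CPM in vehicle and 31.6, 20.3 and 14.2 CPM in AdipoRon livers (2.17 ± 0.26, edgeR adjusted p = 0.00246). Csf1r, the receptor on which the survival of these cells depends, was at 16.1, 15.2 and 17.8 CPM in vehicle and 68.6, 39.8 and 37.7 CPM with AdipoRon (1.57 ± 0.21, edgeR adjusted p = 0.00363). Signalling adaptors of immunoglobulin and activating receptors moved by a similar size: Tyrobp was at a log2 fold change of 1.57 ± 0.18 (edgeR adjusted p = 0.00229) and Fcer1g at 1.48 ± 0.19 (edgeR adjusted p = 0.00319). Lyz2, the lysozyme of macrophages, was at 1.28, the endosomal protein Cd68 at 1.29, the folate receptor Folr2 at 1.23, the protease Ctss at 1.22 and the complement receptor Vsig4 at 1.14. The calls of Cd68, Folr2 and Ctss ended without vehicle 1 or vehicle 2, that of Vsig4 without vehicle 1, vehicle 2, AdipoRon 1 or AdipoRon 2, and that of C1qa without vehicle 2 (edgeR adjusted p from 0.0505 to 0.0884). The other 11 held without each library in turn.

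Not every Kupffer cell gene passed. Clec4f, a lectin of Kupffer cells in mice, was at 58.5, 53.8 and 77.9 CPM in vehicle and 141, 90.4 and 83.03 CPM in AdipoRon livers, without overlap (0.73 ± 0.19, edgeR adjusted p = 0.0519). Cd163, the haemoglobin-haptoglobin scavenger, was at 5.84, 8.89 and 9.07 CPM in vehicle and 29.5, 8.66 and 11.96 CPM with AdipoRon, where AdipoRon 2 lay within the vehicle range (1.11 ± 0.42, edgeR adjusted p = 0.151). Slc40a1, the iron exporter ferroportin, was at 125, 111 and 99.2 CPM in vehicle and 127, 104 and 118 CPM with AdipoRon (0.054 ± 0.12, 95% interval -0.21 to 0.31). Hepatocytes express Slc40a1 as well. Markers of recruited monocytes gave no call among 9 tested with edgeR (1 at an unadjusted p under 0.05, 0 by DESeq2, 0 by limma-voom), where 5.2% of all genes were called. At that share a list of this size would hold few calls, so the lack of calls says little about it. Of the 9, 7 had a positive fold change, and the median was 0.51 (0.19 at the lowest of all settings tried). Ccr2, the chemokine receptor of inflammatory monocytes, was at 0.848, 0.897 and 1.04 CPM in vehicle and 1.23, 1.56 and 1.09 CPM with AdipoRon (0.51 ± 0.25, edgeR adjusted p = 0.26).

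**Figure D2:**
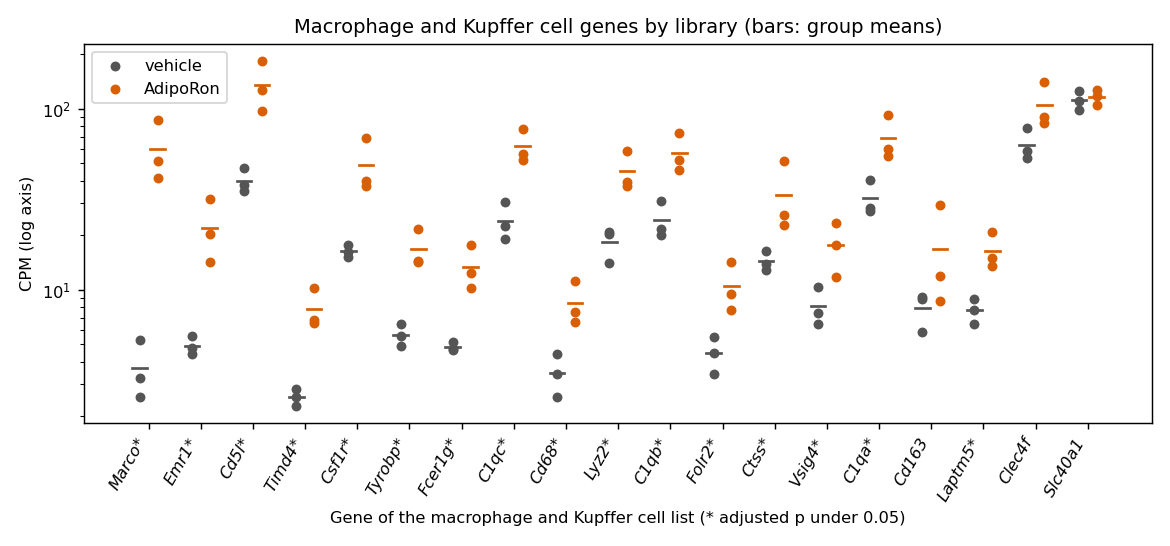
CPM (log axis) of the 19 genes of the macrophage and Kupffer cell list in each vehicle and AdipoRon library, ordered by fold change; points are libraries, bars are group means and asterisks mark adjusted p under 0.05. The groups do not overlap in the 16 called genes, as in all 500 higher calls, and Slc40a1 at the right end lies at one level in both.

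Receptors of myeloid cells were also found among the largest rises. Cd300e, an activating receptor of monocytes, had the largest fold change, from 0.308, 0.149 and 0.298 CPM in vehicle to 7.34, 4.78 and 3.69 CPM in AdipoRon livers (4.26 ± 0.36, edgeR adjusted p = 0.000622). Its summed counts were 18 and 259, a depth-scaled ratio of 19.4 (95% interval 12.01 to 33.2, counting error only). The formyl peptide receptor genes Fpr2 and Fpr1, whose products guide phagocytes to bacterial peptides, went from 0.129, 0.224 and 0.0744 CPM in vehicle to 3.46, 1.5 and 1.5 CPM with AdipoRon (3.90 ± 0.56, edgeR adjusted p = 0.00474) and from 0.977, 0.822 and 1.19 CPM in vehicle to 9.93, 3.78 and 4.24 CPM with AdipoRon (2.58 ± 0.37, edgeR adjusted p = 0.00499). In all 3 genes every AdipoRon library lay above every vehicle library, as in every rise that was called.

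Tlr1, a Toll-like receptor for bacterial lipoproteins, was at 0.566, 0.149 and 0.521 CPM in vehicle and 4.2, 2.33 and 3.49 CPM with AdipoRon (2.86 ± 0.36, edgeR adjusted p = 0.00319). Aoah, an enzyme that inactivates bacterial lipopolysaccharide, was at 0.334, 0.448 and 0.744 CPM in vehicle and 2.84, 2.22 and 2.8 CPM with AdipoRon (2.47 ± 0.32, edgeR adjusted p = 0.00322). Spic, a transcription factor of macrophages that recycle red cells, was at 0.771, 0.972 and 0.521 CPM in vehicle and 5.86, 4.78 and 3.21 CPM with AdipoRon (2.60 ± 0.28, edgeR adjusted p = 0.0019), and the lectin receptor Clec4a1 was at a log2 fold change of 2.60 ± 0.39 (edgeR adjusted p = 0.0057). Dock10, a guanine nucleotide exchange factor, was at 1.58, Tmsb4x, which encodes the actin-binding thymosin beta 4, at 1.11, and Fbf1, a protein at the base of the cilium, at 1.65 (edgeR adjusted p = 0.00168, 0.00168 and 0.00115). Csf3r, the receptor for G-CSF and the sole neutrophil marker of 7 with enough counts to test, went from 0.951, 0.822 and 1.19 CPM in vehicle to 3.83, 3.78 and 3.14 CPM with AdipoRon (1.87 ± 0.27, edgeR adjusted p = 0.00518). Each of these 8 genes stayed called without each of the 6 libraries in turn. Macrophages or other leukocytes are known to express most of them, and what part the summed rise of the macrophage list has in their changes was not tested.

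Interferon-stimulated genes also rose in part. All 34 tested members had a positive fold change under TMM, RLE and total-count scaling, 12 passed and rose (35.3%, against 3.8% of all genes), and the list's median was 0.63. AdipoRon 1 was the highest AdipoRon library in 9 of the 12 and AdipoRon 2 in 3, beside 306 and 144 of all 500 rises. The number called was 4 without vehicle 2, 6 without vehicle 1, AdipoRon 1 or AdipoRon 2, and 9 without vehicle 3. The 2 promoters printed here hold the interferon-stimulated response element, searched as TTTC, any 2 bases and TTTC again on both strands and set in capitals, in the same kind of window from RefSeq on GRCm38.p6.
Ifit3, chr19:34583279-34583528, plus strand: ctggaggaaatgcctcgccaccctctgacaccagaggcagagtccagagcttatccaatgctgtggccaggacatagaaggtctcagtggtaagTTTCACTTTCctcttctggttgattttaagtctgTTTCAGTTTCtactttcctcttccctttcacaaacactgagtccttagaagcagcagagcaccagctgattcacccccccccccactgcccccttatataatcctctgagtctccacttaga
Gbp2, chr3:142620413-142620662, plus strand: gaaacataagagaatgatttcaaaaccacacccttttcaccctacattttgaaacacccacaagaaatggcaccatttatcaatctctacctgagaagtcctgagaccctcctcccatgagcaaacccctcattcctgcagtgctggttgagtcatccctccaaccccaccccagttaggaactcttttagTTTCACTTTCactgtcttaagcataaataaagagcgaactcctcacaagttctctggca
Of the 12 called members, 10 had a window, and 6 of the 10 held the motif, against 3.04% of the 27025 windows.

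Ifit3 and Ifit2 belong to a family of antiviral RNA-binding proteins. Ifit2 was at 2.72, 3.36 and 3.35 CPM in vehicle and 8.45, 6.61 and 6.36 CPM with AdipoRon (1.21 ± 0.17, edgeR adjusted p = 0.00468). Ifit3 was at 18.2, 16.1 and 12.7 CPM in vehicle and 25.4, 26.6 and 22.3 CPM with AdipoRon (0.65 ± 0.13, edgeR adjusted p = 0.0221), a call that ended without vehicle 2, AdipoRon 1 or AdipoRon 2 (edgeR adjusted p from 0.0626 to 0.0731). Oas2, which makes the oligoadenylates that activate RNase L, was at 4.27, 5.75 and 6.17 CPM in vehicle and 10.2, 11.3 and 9.36 CPM with AdipoRon (0.96 ± 0.17, edgeR adjusted p = 0.0102). The calls of Ifit2 and Oas2 held without each library in turn.

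Gbp2, a guanylate-binding GTPase induced by interferon-gamma, went from 4.27, 3.44 and 3.05 CPM in vehicle to 12.8, 7.28 and 8.13 CPM with AdipoRon (1.35 ± 0.25, edgeR adjusted p = 0.0139; 0.0577 without vehicle 2). Its relative Gbp5 rose more in AdipoRon 1 than in the other libraries of the group, with 1.13, 1.05 and 0.893 CPM in vehicle and 11.7, 2.56 and 3.9 CPM in AdipoRon livers. The log2 fold change of Gbp5 was 2.52 ± 0.54 (edgeR adjusted p = 0.025), was 1.60 without AdipoRon 1, and the call ended without any 1 of the vehicle libraries (edgeR adjusted p from 0.05 to 0.0825). The chemokine genes Cxcl9 and Cxcl10, which attract T cells, were at 1.40 and 1.45 (edgeR adjusted p = 0.0247 and 0.0298). Neither call held without vehicle 2, vehicle 3 or AdipoRon 1, nor that of Cxcl9 without vehicle 1 (edgeR adjusted p from 0.05 to 0.0925).

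Among antigen presentation genes 1 library stood apart. All 16 tested members had a positive fold change, with a median of 0.48 (0.16 without AdipoRon 1), and 0 passed with edgeR (9 at an unadjusted p under 0.05, 2 by DESeq2, 0 by limma-voom). Cd74, the invariant chain of MHC class II, was at 24.04, 26.98 and 21.8 CPM in vehicle and 119, 23.2 and 32.9 CPM in AdipoRon livers (1.27 ± 0.48, edgeR adjusted p = 0.15). H2-Ab1, a class II chain, was at 13.9, 11.96 and 13.2 CPM in vehicle and 56.02, 13.7 and 17.02 CPM with AdipoRon (1.14 ± 0.43, edgeR adjusted p = 0.151). In both genes AdipoRon 1 was far above the other 5 libraries, and AdipoRon 2 lay within the vehicle range. Ciita, the master regulator of class II transcription, was at 0.463, 0.822 and 0.446 CPM in vehicle and 1.85, 0.9998 and 1.16 CPM with AdipoRon (1.27 ± 0.41, edgeR adjusted p = 0.0967), and Tap1, a peptide transporter of class I, at 28.8, 27.1 and 25.4 CPM in vehicle and 56.6, 33.9 and 37.04 CPM with AdipoRon (0.64 ± 0.19, edgeR adjusted p = 0.071).

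Complement genes changed in both directions. Of 26 tested, 4 rose (15.4%, against 3.8% of all genes) and 1 fell (3.85%, against 1.4%), and the median was -0.045 (0.063 with total-count scaling, 0.20 without vehicle 3). The 4 were the C1q chains C1qa, C1qb and C1qc, which macrophages make and which the macrophage list also holds, and Cfp, the stabilizing factor properdin. C1qc went from 22.5, 19.1 and 30.6 CPM in vehicle to 77.9, 56.4 and 52.2 CPM with AdipoRon (1.37 ± 0.18, edgeR adjusted p = 0.00322), C1qb was at 1.25, C1qa at 1.11 and Cfp at 1.29 (edgeR adjusted p = 0.0057, 0.0108 and 0.0019). C8g, a hepatocyte component of the membrane attack complex, was at 430.0, 448 and 457 CPM in vehicle and 323, 368 and 364 CPM in AdipoRon livers (-0.34 ± 0.083, edgeR adjusted p = 0.0424). Its call ended with total-count scaling and without any 1 of the 6 libraries (edgeR adjusted p from 0.0617 to 0.142).

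Of 15 lymphocyte markers 11 had enough counts to test, and 2 rose (18.2% of the 11, against 3.8% of all genes). The list median was 1.34 (0.69 without AdipoRon 1, and 0.41 at the lowest of all settings tried). The filter asks for enough counts in as many libraries as 1 group holds. Markers near 0 in vehicle could pass it only through treated livers, so the share and the median can lean upward. The 15 markers summed to 6.22 to 9.45 CPM in vehicle and 10.1 to 14.9 CPM in AdipoRon livers. Cd3e, a chain of the T cell receptor complex, rested on 3 counts in the 3 vehicle libraries and 34 in the AdipoRon libraries, a ratio of 15.3 (95% interval 4.80 to 77.6, counting error only). The B cell receptor chain Cd79b was at 0.308, 0.149 and 0.0744 CPM in vehicle and 0.864, 0.944 and 0.615 CPM with AdipoRon (1.88 ± 0.47, edgeR adjusted p = 0.0467), and 2.77 without vehicle 1. The call of Cd79b ended without any 1 of the 6 libraries, and that of Cd3e (3.74 ± 0.76, edgeR adjusted p = 0.0211; 3.11 without vehicle 1) without vehicle 1, vehicle 2, AdipoRon 1 or AdipoRon 3 (edgeR adjusted p from 0.0513 to 0.131 for both genes).

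Among 18 stellate cell and matrix genes 17 had a positive fold change, at a median of 0.39 (0.27 at the lowest of all settings tried). The list summed to 197 to 247 CPM in vehicle and 257 to 307 CPM in AdipoRon livers. Of the 18, 2 were called and rose (11.1%, against 3.8% of all genes), Vim and Tgfb1, both of which macrophages also express. Vim, an intermediate filament protein, was at 11.1, 9.19 and 11.8 CPM in vehicle and 24.4, 18.1 and 17.1 CPM with AdipoRon (0.89 ± 0.15, edgeR adjusted p = 0.00946). Tgfb1, the growth factor that activates stellate cells, was at 5.27, 4.71 and 4.76 CPM in vehicle and 9.56, 7.72 and 8.2 CPM with AdipoRon (0.78 ± 0.14, edgeR adjusted p = 0.0108). Of 14 endothelial markers 0 passed with edgeR (2 at an unadjusted p under 0.05, 1 by DESeq2, 0 by limma-voom), with a median of -0.0040 (0.095 with total-count scaling). Cdh5, the adhesion protein of endothelial junctions, was at 9.49, 8.67 and 6.77 CPM in vehicle and 15.9, 12.4 and 10.6 CPM with AdipoRon (0.62 ± 0.18, edgeR adjusted p = 0.0729). Hepatocyte markers gave 0 calls of 7 with edgeR (2 at an unadjusted p under 0.05, 2 by DESeq2, 0 by limma-voom) and a median of -0.19.

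Cell cycle genes summed to 89.0 to 89.9 CPM in vehicle and 101 to 111 CPM in AdipoRon livers. Of 19 tested, 3 rose (15.8%, against 3.8% of all genes), at a list median of 0.45 (0.25 without vehicle 1). These 3 held 27 to 30 summed counts in vehicle, so few that they may have passed the filter only through treated livers. The share and the median can therefore lean upward, as for the lymphocyte markers. Mki67, the antigen of cycling cells, went from 0.231, 0.598 and 0.744 CPM in vehicle to 3.64, 2.11 and 2.05 CPM with AdipoRon (2.52 ± 0.51, edgeR adjusted p = 0.0208), on 27 and 127 summed counts. Top2a, a DNA topoisomerase of dividing cells, was at 1.84 and the mitotic kinase Cdk1 at 1.56 (edgeR adjusted p = 0.0192 and 0.039). Without 1 library the list held 0 to 2 calls: Mki67 lost its call without vehicle 1, vehicle 2 or AdipoRon 1, Top2a without vehicle 1, AdipoRon 1 or AdipoRon 2, and Cdk1 without any 1 of the 6 (edgeR adjusted p from 0.0522 to 0.134).

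**Figure D3:**
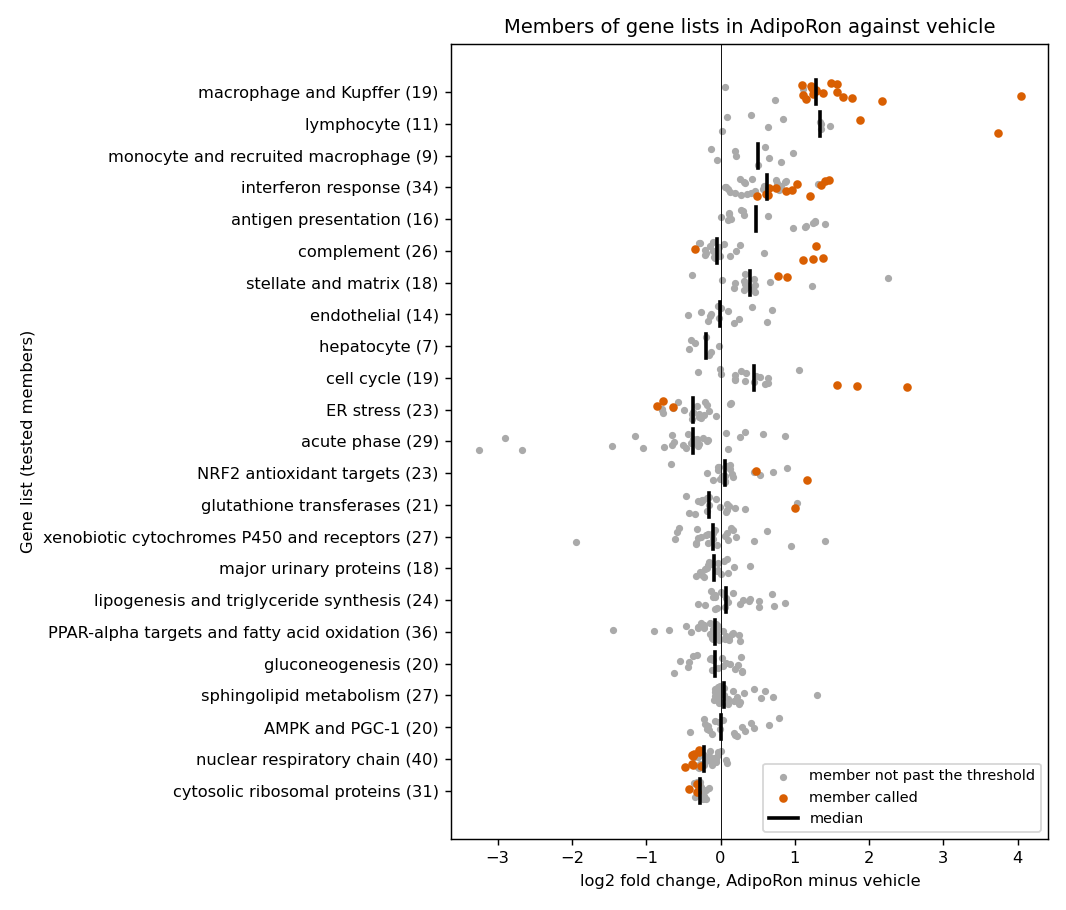
Log2 fold change of AdipoRon minus vehicle (horizontal axis) of the tested members of 23 gene lists (rows, with the number of tested members), 1 point per gene; orange points passed the test and black bars are list medians. Macrophage genes lie apart to the right with a median of 1.28, interferon genes all lie above 0, and the respiratory chain and ribosomal protein genes form narrow clouds at medians of -0.22 and -0.28.

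Growth hormone targets held large single changes in both directions. Of 24 tested growth hormone and sex-biased genes 2 rose (8.33%, against 3.8% of all genes) and 1 fell (4.17%, against 1.4%), at a median of -0.023 (0.075 with total-count scaling, 0.27 without vehicle 3). Cish, a suppressor of cytokine signalling that STAT5 induces, was at 1.77, 3.74 and 1.19 CPM in vehicle and 15.9, 22.2 and 11.4 CPM in AdipoRon livers (2.95 ± 0.34, edgeR adjusted p = 0.00229). Bcl6, a transcriptional repressor that growth hormone lowers in liver and that shares binding sites with STAT5, was at 103, 105 and 113 CPM in vehicle and 52.1, 25.6 and 23.8 CPM with AdipoRon (-1.66 ± 0.25, edgeR adjusted p = 0.0059). Both changes left a wide gap between the groups and both calls held without each library in turn.

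Cyp4a12a, a fatty acid omega-hydroxylase of male mouse liver, was at 72.95, 90.1 and 79.4 CPM in vehicle and 118, 156 and 124 CPM with AdipoRon (0.72 ± 0.16, edgeR adjusted p = 0.032), and the call ended without any 1 of the 6 libraries except AdipoRon 1 (edgeR adjusted p from 0.0557 to 0.103). Onecut1, a hepatocyte transcription factor that growth hormone is known to raise, was at 3.83, 7.7 and 5.43 CPM in vehicle and 9.81, 49.2 and 40.8 CPM with AdipoRon (2.63 ± 0.48, edgeR adjusted p = 0.0138; 0.0608 without vehicle 1). AdipoRon 1 was the lowest of its group here, close to the vehicle range. The 18 tested major urinary protein genes, abundant targets of growth hormone pulses in males, gave 0 calls with edgeR (0 at an unadjusted p under 0.05, 0 by DESeq2, 0 by limma-voom), at a median of -0.085 that ran from -0.56 without AdipoRon 2 to 0.58 without vehicle 3.

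The other falls named for their size or low p came from unrelated gene families. The zinc finger gene Zfp9 was at 6.86, 8.07 and 7.59 CPM in vehicle and 3.46, 2.44 and 2.32 CPM with AdipoRon (-1.44 ± 0.26, edgeR adjusted p = 0.0126; 0.051 without AdipoRon 2). Gpr98, a very large adhesion receptor, was at 11.98, 9.27 and 8.78 CPM in vehicle and 5.55, 3.61 and 4.58 CPM with AdipoRon (-1.14 ± 0.20, edgeR adjusted p = 0.0102), and the small GTPase gene Arl4d at 63.5, 81.8 and 70.1 CPM in vehicle and 31.7, 28.6 and 43.1 CPM with AdipoRon (-1.06 ± 0.18, edgeR adjusted p = 0.0102). In each of these the groups did not overlap, as in every fall that was called. Zfp276, a zinc finger gene, was at 50.7, 58.97 and 46.5 CPM in vehicle and 31.96, 27.7 and 36.1 CPM with AdipoRon (-0.71 ± 0.11, edgeR adjusted p = 0.00754). Siah2, a ubiquitin ligase, was at 24.6, 30.6 and 22.6 CPM in vehicle and 14.5, 13.2 and 14.7 CPM with AdipoRon (-0.87 ± 0.12, edgeR adjusted p = 0.00452). The membrane protein gene Tmem39a was at -1.05 and the methyltransferase gene Setd4 at -1.004 (edgeR adjusted p = 0.00575 and 0.00973). Arl4d, Gpr98, Zfp276, Siah2, Tmem39a and Setd4 kept their calls without each library in turn.

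Some of the falls with the lowest p were small and even across libraries. Fem1a, an adaptor of a ubiquitin ligase, was at 53.3, 53.4 and 50.6 CPM in vehicle and 39.9, 40.05 and 39.8 CPM in AdipoRon livers (-0.39 ± 0.065, edgeR adjusted p = 0.00927). Usp36, a nucleolar deubiquitinase, was at 35.8, 39.4 and 34.4 CPM in vehicle and 25.8, 26.7 and 25.4 CPM with AdipoRon (-0.49 ± 0.08, edgeR adjusted p = 0.00874). Larger and less even falls followed. Esrrg, an estrogen-related nuclear receptor, was at -1.16 and Atxn1, a transcriptional corepressor, at -1.35 (edgeR adjusted p = 0.0247 and 0.0288). Atxn1 lost its call without AdipoRon 2 or AdipoRon 3, and Esrrg without any 1 of the 6 libraries except vehicle 3 (edgeR adjusted p from 0.0604 to 0.09 for both). Frat2, Krtcap3 and Golph3l were at -0.93, -0.89 and -0.87, and their calls ended without 4, 6 and 4 of the 6 libraries (edgeR adjusted p from 0.0556 to 0.13).

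Genes of the endoplasmic reticulum stress response lay mostly below their vehicle level. Of 23 tested, 3 fell (13%, against 1.4% of all genes), 21 had a negative fold change and the median was -0.37 (20 negative and a median of -0.26 with total-count scaling; a median of -0.20 without vehicle 3). Syvn1, a ubiquitin ligase of protein disposal, was at 217, 205 and 278 CPM in vehicle and 150.3, 118 and 117 CPM in AdipoRon livers (-0.86 ± 0.20, edgeR adjusted p = 0.0331). Herpud1, a partner of that ligase, was at 940.1, 1036 and 889 CPM in vehicle and 774, 463 and 609.9 CPM with AdipoRon (-0.63 ± 0.16, edgeR adjusted p = 0.0479), and Derl3, a channel protein of the same route, at 14.7, 11.4 and 18.4 CPM in vehicle and 7.03, 8.55 and 10.4 CPM with AdipoRon (-0.78 ± 0.19, edgeR adjusted p = 0.0384). The list summed to 7009, 7357 and 9501 CPM in vehicles 1, 2 and 3 and to 6050 to 6582 CPM in AdipoRon livers, so vehicle 3 was the highest. The calls depended on single libraries: the list held 0 calls without vehicle 1 or AdipoRon 2, 1 without vehicle 2, vehicle 3 or AdipoRon 3, and 4 without AdipoRon 1 (edgeR adjusted p from 0.0618 to 0.143 where these 3 lost theirs).

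Ddit3, which encodes the stress transcription factor CHOP, fell from 16.6, 12.9 and 15.03 CPM in vehicle to 9.56, 8.28 and 9.36 CPM with AdipoRon (-0.72 ± 0.12, edgeR adjusted p = 0.0102) and kept the call without each library in turn. It was the sole call among 20 targets of ATF4 (5%, against 1.4% of all genes), whose median was -0.077 (0.020 with total-count scaling). Bag3, a co-chaperone of HSP70, was the sole call among 14 heat shock genes (7.14%, against 1.4% of all genes). It was at 49.999, 46.6 and 37.2 CPM in vehicle and 29.7, 21.995 and 29.8 CPM in AdipoRon livers (-0.72 ± 0.15, edgeR adjusted p = 0.0247). That call was lost without vehicle 1, vehicle 2 or AdipoRon 2 (edgeR adjusted p from 0.0683 to 0.0785). Of the 14 heat shock genes 9 had a negative fold change, and the median was -0.19. Myc was called alone among 17 immediate early genes (5.88%, near the 3.8% of all genes). It was at 1.7, 2.99 and 1.93 CPM in vehicle and 14.01, 11.3 and 4.85 CPM with AdipoRon (2.26 ± 0.51, edgeR adjusted p = 0.032). The call of Myc was lost without any 1 of the 6 libraries except AdipoRon 3 (edgeR adjusted p from 0.0615 to 0.104). Of the 17 genes 15 had a positive fold change, and the median was 0.39.

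Glucocorticoid targets did not move in one direction. Of 17 tested, 2 rose (11.8%, against 3.8% of all genes) and 1 fell (5.88%, against 1.4%), at a median of -0.19 (-0.0053 without vehicle 3, -0.54 without AdipoRon 1). Klf9, a transcription factor that the glucocorticoid receptor induces, was at 56.3, 72.8 and 75.5 CPM in vehicle and 138, 108 and 111 CPM with AdipoRon (0.81 ± 0.13, edgeR adjusted p = 0.00805), called without each library in turn. Nr3c1, the receptor itself, was at 64.5, 68.1 and 72.97 CPM in vehicle and 79.7, 98.1 and 92.7 CPM with AdipoRon (0.40 ± 0.086, edgeR adjusted p = 0.0268; lost without vehicle 1, vehicle 2, AdipoRon 2 or AdipoRon 3, edgeR adjusted p from 0.0746 to 0.0975). Tsc22d3, an anti-inflammatory target of the receptor, was lower, at 235, 315 and 269.8 CPM in vehicle and 161, 122 and 176 CPM with AdipoRon (-0.84 ± 0.21, edgeR adjusted p = 0.0431; lost without any 1 of the 6 libraries, edgeR adjusted p from 0.0577 to 0.136). Among 19 clock genes the repressor Nr1d1 alone passed (5.26%, against 1.4% of all genes), at 61.4, 63.005 and 73.9 CPM in vehicle and 50.3, 35.9 and 27.1 CPM with AdipoRon (-0.80 ± 0.20, edgeR adjusted p = 0.0424), lost without any 1 of the 6 libraries except AdipoRon 1 (edgeR adjusted p from 0.0692 to 0.11).

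The pathways for which the adiponectin receptors are best known gave no call in these livers with all libraries in the fit, where 5.2% of all tested genes were called. At that share a list of this size would hold few calls, so a lack of calls says little about it. The counts at an unadjusted p in this and the next paragraphs are to be read against 21.9% of all genes. The medians of the receptor, AMPK, PPAR-alpha, gluconeogenesis, cholesterol and amino acid lists change sign with total-count scaling or with 1 library left out. Adipor1 was at 96.7, 88.2 and 95.4 CPM in vehicle and 103, 89.1 and 89.9 CPM in AdipoRon livers (log2 fold change 0.011 ± 0.10, 95% interval -0.21 to 0.23). Adipor2 was at 504, 465 and 530.4 CPM in vehicle and 508, 472 and 505 CPM with AdipoRon (-0.013 ± 0.083, 95% interval -0.20 to 0.17). The groups overlapped in both genes, and the sign of both values depends on the scaling, length correction or library used. Of the 8 tested receptor and adaptor genes 0 passed with edgeR (1 at an unadjusted p under 0.05, 0 by DESeq2, 0 by limma-voom), at a median of 0.042. Among 20 genes of AMPK and PGC-1, 0 passed with edgeR (1 by DESeq2, 0 by limma-voom), at a median of 0.00996. At an unadjusted edgeR p under 0.05 there were 10 of the 20, a larger share than the 21.9% of all genes. Without vehicle 3 or with total-count scaling 2 passed. Ucp2, a mitochondrial carrier that macrophages also express, was at 20.9, 16.9 and 26.9 CPM in vehicle and 48.99, 29.8 and 32.2 CPM with AdipoRon (0.78 ± 0.21, edgeR adjusted p = 0.0543), and the deacetylase gene Sirt1 at 12.2, 10.2 and 10.1 CPM in vehicle and 14.4, 15.1 and 14.4 CPM with AdipoRon (0.41 ± 0.12, edgeR adjusted p = 0.0653).

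Of 36 PPAR-alpha targets and fatty acid oxidation genes 0 passed with edgeR (2 at an unadjusted p under 0.05, 0 by DESeq2, 0 by limma-voom), at a median of -0.073. Angptl4, a PPAR-alpha target that inhibits lipoprotein lipase, was at 247, 289 and 235 CPM in vehicle and 212, 134 and 211 CPM with AdipoRon (-0.47 ± 0.18, edgeR adjusted p = 0.151). Among 27 sphingolipid genes, which include the ceramidases, 0 passed with edgeR (4 at an unadjusted p under 0.05, 0 by DESeq2, 0 by limma-voom), at a median of 0.052. The sphingomyelin synthase gene Sgms2 was at 0.32 (edgeR adjusted p = 0.109). Gluconeogenesis held 0 calls of 20 with edgeR (6 at an unadjusted p under 0.05, 1 by DESeq2, 1 by limma-voom), at a median of -0.068, and 1 was called lower without AdipoRon 1. Klf15, a fasting-induced activator of that pathway, was at 278, 328 and 301 CPM in vehicle and 263, 199.6 and 211 CPM with AdipoRon (-0.43 ± 0.12, edgeR adjusted p = 0.0579), without overlap.

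Lipogenesis and triglyceride synthesis likewise gave 0 calls of 24 with edgeR (6 at an unadjusted p under 0.05, 0 by DESeq2, 0 by limma-voom), at a median of 0.068, with 1 called higher without vehicle 1 and 1 called lower without AdipoRon 1. The lipogenic regulator Thrsp was at 761, 722 and 792 CPM in vehicle and 913, 898 and 989 CPM with AdipoRon (0.30 ± 0.10, edgeR adjusted p = 0.12), and malic enzyme Me1 at 139.8, 98.9 and 76.02 CPM in vehicle and 170.0, 139 and 142 CPM with AdipoRon (0.51 ± 0.18, edgeR adjusted p = 0.122). Cholesterol synthesis held 0 of 25 (1 at an unadjusted p under 0.05, 1 by DESeq2, 0 by limma-voom) and bile acid genes 0 of 20 (3, 0 and 0 in the same order). Xenobiotic cytochromes P450 and their receptors held 0 of 27 with edgeR (4 at an unadjusted p under 0.05, 2 by DESeq2, 0 by limma-voom), and amino acid breakdown with the urea cycle 0 of 31 (4, 0 and 0). Without vehicle 3, 3 of the P450 list were called lower, and without AdipoRon 1, 1. Cyp2a12 was at 615, 636 and 548 CPM in vehicle and 441, 472 and 523 CPM with AdipoRon (-0.33 ± 0.10, edgeR adjusted p = 0.0731; 0.0376 without vehicle 3), and Cyp3a25 at 536, 425 and 319.7 CPM in vehicle and 284, 231 and 339 CPM with AdipoRon (-0.59 ± 0.19, edgeR adjusted p = 0.0995; 0.0286 without vehicle 3). An interval that spans 0 or a p that misses the threshold does not show that these genes are equal in both groups.

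A few metabolic genes did pass. Pklr, the pyruvate kinase of hepatocytes, rose from 332, 324 and 268 CPM in vehicle to 492, 506 and 550.1 CPM with AdipoRon (0.74 ± 0.13, edgeR adjusted p = 0.0108), and Pkm, the pyruvate kinase of most other cells including macrophages, from 11.3, 11.7 and 11.9 CPM in vehicle to 24.3, 17.8 and 17.3 CPM with AdipoRon (0.77 ± 0.13, edgeR adjusted p = 0.0102). Both held without each library in turn. Hk2, a hexokinase that healthy hepatocytes express little, was at 0.411, 0.523 and 0.446 CPM in vehicle and 2.78, 2.22 and 0.752 CPM with AdipoRon (2.10 ± 0.44, edgeR adjusted p = 0.0233), lost without vehicle 1, vehicle 2, AdipoRon 1 or AdipoRon 2 (edgeR adjusted p from 0.0658 to 0.0891). These were the 3 calls (11.1%, against 3.8% of all genes) among 27 genes of glycolysis, fructose and glycogen metabolism. Hk2 held 29 summed counts in vehicle and may have passed the filter only through treated livers, so this share can lean upward.

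Lipoprotein genes held 2 rises (8.7%, against 3.8% of all genes) and 1 fall (4.35%, against 1.4%) among 23, at a median of -0.19. DESeq2 called 9 and limma-voom 5 of them, and the number called lower was 6 without vehicle 3 and 0 without any other 1 of the 6 libraries. Pltp, the phospholipid transfer protein, was at 10.7, 8.74 and 7.66 CPM in vehicle and 28.1, 12.9 and 23.4 CPM in AdipoRon livers (1.22 ± 0.24, edgeR adjusted p = 0.0195; lost without vehicle 2 or AdipoRon 1, edgeR adjusted p = 0.0692 and 0.0575). Lpl, the lipoprotein lipase, which macrophages make and adult hepatocytes hardly do, was at 7.35, 5.23 and 9.0005 CPM in vehicle and 15.2, 23.8 and 11.003 CPM with AdipoRon (1.21 ± 0.27, edgeR adjusted p = 0.0273). Apoc4, a minor apolipoprotein, was at 259, 275 and 279 CPM in vehicle and 181, 197 and 188 CPM with AdipoRon (-0.52 ± 0.12, edgeR adjusted p = 0.0337). With a length trend removed Apoc4 was at -0.30 and with total-count scaling at -0.42 (edgeR adjusted p = 0.172 and 0.075). The call of Lpl ended without any 1 of vehicle 1, vehicle 2, AdipoRon 1 and AdipoRon 2, and that of Apoc4 without any 1 of the 6 (edgeR adjusted p from 0.0532 to 0.107). Fetub, a protease inhibitor that liver secretes, was the sole call among 17 hepatokines (5.88%, against 1.4% of all genes), at 479, 556 and 552 CPM in vehicle and 381, 400.0 and 402 CPM with AdipoRon (-0.42 ± 0.087, edgeR adjusted p = 0.0216). That call was lost without vehicle 2, AdipoRon 1 or AdipoRon 2 (edgeR adjusted p from 0.0584 to 0.0857).

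In each of 2 detoxification families 1 gene gave a firm call, and nothing is read from it about the family. Gstm3, a mu-class glutathione transferase, was at 11.9, 8.89 and 8.85 CPM in vehicle and 23.3, 17.3 and 19.96 CPM with AdipoRon (1.01 ± 0.14, edgeR adjusted p = 0.00452). It was the sole call among 21 glutathione transferases (4.76%, near the 3.8% of all genes), whose median was -0.15. Ces2c, a carboxylesterase, was at 18.9, 15.4 and 22.2 CPM in vehicle and 38.1, 33.2 and 34.8 CPM with AdipoRon (0.91 ± 0.12, edgeR adjusted p = 0.00363), the sole call among 12 (8.33%, against 3.8% of all genes). Near-identical relatives exist for both genes, so some of their reads may belong to a relative, and their values are uncertain to that extent. Of 23 targets of the antioxidant regulator NRF2, 2 rose (8.7%, against 3.8% of all genes), at a median of 0.067; 3 were called higher and 1 lower without vehicle 3. Hmox1, the haem oxygenase, was at 7.92, 7.92 and 6.84 CPM in vehicle and 21.2, 15.6 and 14.4 CPM with AdipoRon (1.17 ± 0.23, edgeR adjusted p = 0.018; lost without vehicle 1, vehicle 2 or AdipoRon 1, edgeR adjusted p from 0.0559 to 0.0593), and macrophages express it too. Pgd, of the pentose phosphate pathway, was at 0.48 (edgeR adjusted p = 0.0424; lost without any 1 of vehicle 1, vehicle 2, AdipoRon 1 and AdipoRon 2, edgeR adjusted p from 0.0876 to 0.15).

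The falls were most frequent among short transcripts. Among 978 tested genes of up to 1000 bases 59 fell (6.03%) and 17 rose (1.74%), with a median log2 fold change of -0.20. Among 575 genes of over 8000 bases 3 fell (0.522%) and 36 rose (6.26%), with a median of 0.12. In the 3 classes between them the medians were -0.086, -0.00045 and 0.085, in order of length, as the plot of calls by gene length shows. With a length trend removed from each library 93 genes fell, and with length and GC trends removed 105, against 184 without a correction.

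**Figure D4:**
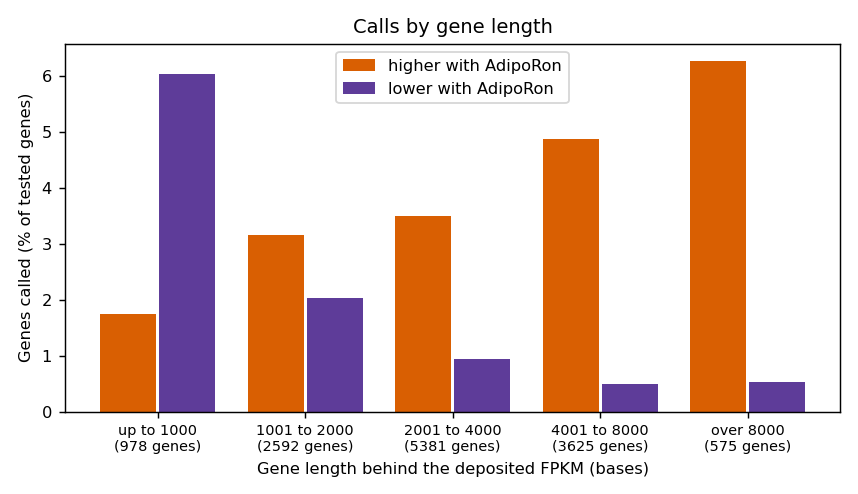
Share of tested genes called higher (orange) or lower (purple) with AdipoRon, in percent, in 5 classes of gene length in bases (horizontal axis, with the number of tested genes). The lower calls drop from 6.03% in the shortest class to 0.497% and 0.522% in the classes above 4000 bases, while the higher calls climb from 1.74% to 6.26%.

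Nuclear genes of the respiratory chain and genes of cytosolic ribosomal proteins, both with short transcripts (median lengths of 1213 and 1120 bases), were mostly lower. Of 40 respiratory chain subunits 9 fell (22.5%, against 1.4% of all genes), 37 had a negative fold change, and the median was -0.22 (30 negative and a median of -0.12 with total-count scaling). Ndufa2, a subunit of complex I, was at 137, 135 and 156 CPM in vehicle and 93.8, 103 and 109.7 CPM with AdipoRon (-0.49 ± 0.087, edgeR adjusted p = 0.0121). Cox5b, a subunit of complex IV, was at 281, 289 and 295 CPM in vehicle and 212, 224 and 228 CPM with AdipoRon (-0.38 ± 0.072, edgeR adjusted p = 0.0148), lost without vehicle 2 or AdipoRon 1 (edgeR adjusted p = 0.0579 and 0.0584). Ndufb9, of complex I, was at -0.39 (edgeR adjusted p = 0.0144), lost without vehicle 1, vehicle 2 or AdipoRon 1 (edgeR adjusted p from 0.0516 to 0.0594). With the length trend removed 1 of the 40 was called, with Ndufa2 and Cox5b at -0.49 and -0.38 before and -0.27 and -0.17 after (edgeR adjusted p = 0.0611 and 0.212 after). With total-count scaling 2 were called, with DESeq2 19, with limma-voom 11, without vehicle 2 or AdipoRon 1 alone 1, and without the other single libraries 3 to 7. The 13 mitochondrially encoded genes gave 0 calls with edgeR (3 at an unadjusted p under 0.05, 2 by DESeq2, 1 by limma-voom), at a median of 0.034.

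Ribosomal protein genes had a negative fold change in all 31 tested members under TMM, RLE and total-count scaling, at a median of -0.28 with TMM and -0.18 with total-count scaling, and 3 passed with TMM (9.68%, against 1.4% of all genes) and 0 with total-count scaling. DESeq2 called 13, limma-voom 6, and 28 had an unadjusted p under 0.05. Rplp1, of the ribosomal stalk, was at 459, 494 and 597 CPM in vehicle and 371, 409 and 372 CPM with AdipoRon (-0.43 ± 0.11, edgeR adjusted p = 0.0424). Rpl22 was at -0.32 and Rps15 at -0.31 (edgeR adjusted p = 0.0347 and 0.0443). With the length trend removed Rpl22 was at -0.27, close to its value before, Rplp1 at -0.20 and Rps15 at -0.099, and 0 of the 31 passed (edgeR adjusted p = 0.0691, 0.274 and 0.495 for the 3). Without vehicle 1 the list held 2 calls and without any other 1 of the 6 libraries 0.

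The design also allows the parent compound to be set against its PEGylated analog. AdipoRonPEG5 is a PEGylated form of AdipoRon in the series' title, so it carries added polyethylene glycol; this 1 pair was compared, at the same printed dose and time. Against vehicle, AdipoRonPEG5 had 2260 calls (17.2%), 1256 higher (9.55%) and 1004 lower (7.63%). In all, 709 genes (5.39%) differed between the compounds with edgeR, of which 352 were higher (2.68%) and 357 lower (2.71%) with AdipoRonPEG5. Of the 684 genes called in AdipoRon against vehicle, 61 were among them; the AdipoRon libraries enter both tests, so nothing is read from that number. The vehicle libraries are shared too, so values against vehicle are set side by side and the direct difference between the compounds is what was tested.

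With all libraries in the fit, 0 of the 19 macrophage genes were called between the compounds with edgeR (2 by DESeq2, 0 by limma-voom). At an unadjusted edgeR p under 0.05 there were 5, all higher with AdipoRonPEG5. That result depended on AdipoRon 1: without it 5 were called higher with AdipoRonPEG5, and 0 without any other 1 of the compound libraries. Marco was at 87.2, 51.4 and 41.2 CPM with AdipoRon and 57.997, 78.7 and 71.2 CPM with AdipoRonPEG5 (log2 difference 0.21, 95% interval -0.35 to 0.76). Cish was at 15.9, 22.2 and 11.4 CPM with AdipoRon and 16.1, 22.7 and 19.4 CPM with the analog (difference 0.23, 95% interval -0.39 to 0.85). The ranges of the 2 compounds overlapped for both genes, and the intervals do not show that the compounds act alike. Bcl6 was lower with the analog, at 52.1, 25.6 and 23.8 against 17.95, 13.9 and 12.1 CPM (difference -1.21, 95% interval -1.79 to -0.63, edgeR adjusted p = 0.0264), lost without AdipoRonPEG5 2 or AdipoRonPEG5 3 (edgeR adjusted p = 0.102).

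For some genes the compounds lay on opposite sides of vehicle. Pklr was at 492, 506 and 550.1 CPM with AdipoRon and 179, 213 and 254 CPM with AdipoRonPEG5, above and below the 332, 324 and 268 CPM of vehicle (difference -1.26, 95% interval -1.55 to -0.97, edgeR adjusted p = 0.000654). Derl3 was at 7.03, 8.55 and 10.4 CPM with AdipoRon and 29.6, 24.2 and 30.8 CPM with the analog, below and above the 14.7, 11.4 and 18.4 CPM of vehicle (difference 1.71, 95% interval 1.30 to 2.11, edgeR adjusted p = 0.000817). Cyp2c67, a cytochrome P450, was at 140.2, 134 and 146 CPM with AdipoRon and 327, 288 and 397 CPM with the analog beside 174, 216 and 231 CPM in vehicle (difference 1.27, edgeR adjusted p = 0.000654). These 3 differences held without each of the 6 compound libraries in turn. The fall of Cyp2c67 with AdipoRon against vehicle (-0.56, edgeR adjusted p = 0.035) ended without any 1 of the 6 libraries of that comparison except vehicle 1. That of Derl3 ended without vehicle 1, vehicle 3, AdipoRon 1 or AdipoRon 2 (edgeR adjusted p from 0.07 to 0.121).

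Other genes differed in the extent of their change. Gstm3 was at 23.3, 17.3 and 19.96 CPM with AdipoRon and 747, 683 and 659 CPM with AdipoRonPEG5 (difference 5.11, 95% interval 4.77 to 5.45, edgeR adjusted p = 1.75e-08), and Ces2c at 38.1, 33.2 and 34.8 CPM with AdipoRon and 73.8, 74.02 and 84.5 CPM with the analog (difference 1.13, 95% interval 0.87 to 1.39, edgeR adjusted p = 0.000654). Lgals3, galectin 3 of macrophages, rose with AdipoRon from 2.39, 1.49 and 2.08 CPM in vehicle to 7.9, 5.5 and 5.81 CPM with AdipoRon (edgeR adjusted p = 0.00319) and was at 13.8, 14.2 and 11.7 CPM with the analog (difference 1.05, edgeR adjusted p = 0.0102). Oas2, which rose with AdipoRon, was at 4.2, 4.41 and 3.64 CPM with the analog (difference -1.33, edgeR adjusted p = 0.00253), beside 4.27, 5.75 and 6.17 CPM in vehicle. Gpr98 was lower with the analog, at 1.6, 1.87 and 1.29 against 5.55, 3.61 and 4.58 CPM (difference -1.51, edgeR adjusted p = 0.00634). Each of these 5 differences held without each of the 6 compound libraries in turn; of the 61, 13 did. Tsc22d3 was lower with the analog as well, at 53.5, 66.4 and 98.1 CPM (difference -1.07, edgeR adjusted p = 0.0175), lost without AdipoRon 1, AdipoRon 3, AdipoRonPEG5 1 or AdipoRonPEG5 2 (edgeR adjusted p from 0.0519 to 0.0773).

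**Figure D5:**
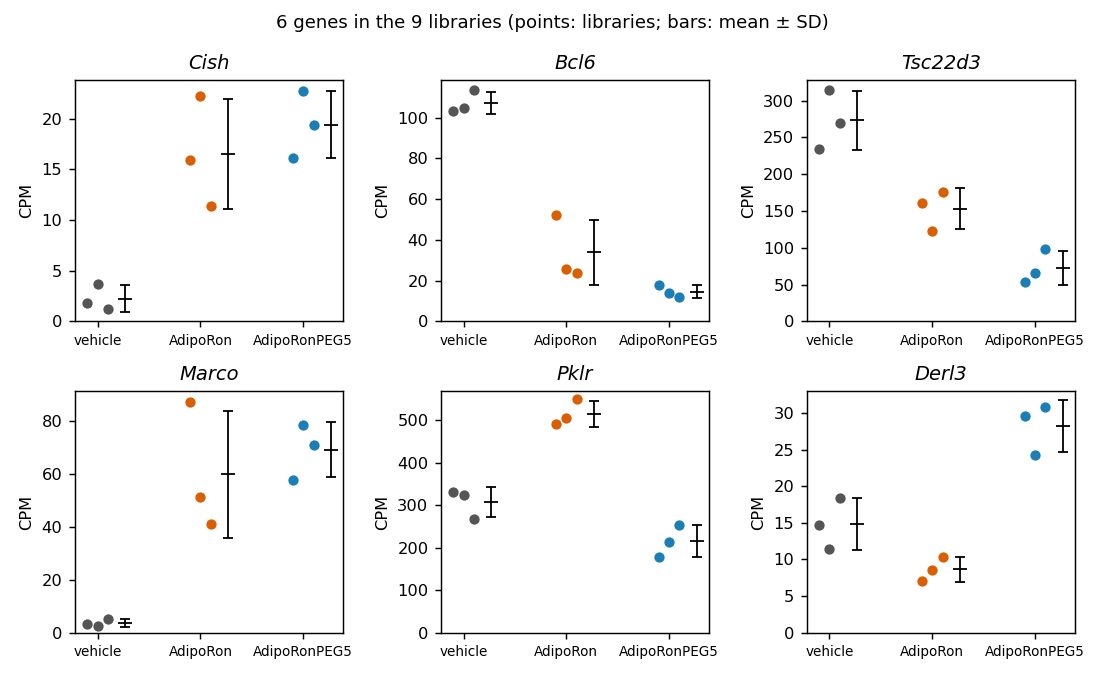
CPM of 6 genes in the 9 libraries; points are libraries and bars show mean ± SD of 3. Cish and Marco reach similar ranges with both compounds, Bcl6 and Tsc22d3 are lowest with AdipoRonPEG5, and Pklr and Derl3 lie on opposite sides of vehicle with the 2 compounds.

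More than 10 members differed between the compounds in 4 of the 51 lists, chosen here for that count, where 2.68% of all genes were higher and 2.71% lower with AdipoRonPEG5. Of the 31 ribosomal protein genes, 19 were higher with AdipoRonPEG5 than with AdipoRon (0 lower), with medians against vehicle of 0.11 and -0.28. Without 1 compound library 3 to 16 were higher (3 without AdipoRon 1 or AdipoRonPEG5 1, 16 without AdipoRon 2, and 4 or 5 without each of the others). Their transcripts are short (median length of 1120 bases), and what a length correction does to these 19 calls was not tested. Of 24 lipogenesis genes 11 were lower with AdipoRonPEG5 (0 higher), with medians against vehicle of -0.53 and 0.068, and 4 to 11 were without 1 compound library (4 without AdipoRonPEG5 2, 6 without AdipoRonPEG5 1 and 7 without AdipoRon 3). Of 31 genes of amino acid breakdown and the urea cycle 13 were lower (0 higher), with medians of -0.45 and -0.064, and without 1 compound library 3 or 4 were, except without AdipoRon 2, which left 10. Of 21 glutathione transferases 10 were higher and 1 was lower with AdipoRonPEG5, with medians against vehicle of 0.65 and -0.15, and 9 or 10 were higher without each compound library in turn. In each pair of medians the first is that of AdipoRonPEG5.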

How the data were processed

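Aligner settings, genome build, annotation and strand handling are not stated by any source used. Per the submitters' processing notes, the tools were HTSeq 0.6.1, STAR 2.5, edgeR, TopHat and DESeq2, without roles. The deposited table held raw read counts per gene, and the authors' FPKM values beside them, which gave gene lengths (whole within 0.01 base for 99.995% of entries) and nothing else. Of 35275 entries 21500 had a count; 126 that share a name and 27 names turned into dates were never matched to a gene. Counts of all 9 libraries, 3 per group, were fitted with edgeR 4.0.16 (R 4.3.3; filterByExpr, TMM, quasi-likelihood test, group means only), so that the groups share one estimate of the spread. The Benjamini-Hochberg adjustment ran over 13151 genes, with calls at 0.05. CPM use TMM-scaled library sizes, and SE is the fold change over the root of the F statistic. DESeq2 1.42.0, limma-voom (limma 3.58.1), other scalings and filters, left-out libraries, and length and GC trends (the last 2 chosen after seeing the data) served as alternatives. The fit was checked on simulated counts of 12981 genes for AdipoRon against vehicle. The fit recovered 50% of 66 changes at a fold of 1.5, 74.6% of 67 at 2 and 95.4% of 65 at 4. False calls were at 8.23%, above what the threshold of 0.05 allows for, so some of the calls reported here may be false. Changes near a fold of 1.5 were often missed, so a list without a call can hold such changes.

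The comparison and the 51 gene lists (942 of 946 symbols found, 8 by an older name) were chosen with earlier results of these data known. Named genes were the 12 largest rises and falls among called genes whose groups did not overlap (mean CPM of 1 or more; pseudogenes and gene models lacking a proper name skipped), the 6 lowest p in each direction, up to 3 called members of each list by lowest p, 2 members of a described list without a call, and both adiponectin receptors. Genes named after their values were seen were the macrophage list members other than Marco, Cd5l, Tyrobp, C1qb and C1qc, and Ifit3, Cxcl9, Cxcl10, Cd74, H2-Ab1, C1qa, C8g, Cyp2c67, Lgals3 and Saa1. Promoter windows came from RefSeq on GRCm38.p6 by symbol. Not every gene that this rule selects is described.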

Additional observations from a re-analysis of the deposited data

How the results depend on the processing

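The number of genes called in AdipoRon against vehicle was 684 (500 higher, 184 lower). With the 2 groups alone in the fit it was 325 (256 higher, 69 lower), and total-count scaling gave 883 higher and 64 lower. DESeq2 gave 365 lower, a length trend removed 93 lower, and length and GC trends removed 105 lower. Leaving out 1 library gave 250 to 624 calls (201 to 471 higher, 41 to 153 lower), 306 to 1032 for AdipoRonPEG5 against AdipoRon (709 with all libraries) and 1337 to 2334 for AdipoRonPEG5 against vehicle (2260). Replicate numbers did not pair the libraries: vehicle and AdipoRon libraries of one number had correlations of 0.0871, -0.154 and -0.3 in their deviations from the group means, so the replicate block, which gave 444 calls (79 lower) and 338 between the compounds, rests on a shared number alone. Of 74 named called genes, 66 to 74 stayed called under RLE or total-count scaling, other filters, DESeq2, limma-voom or a thinned vehicle 1, 59 and 61 with the trends removed, 54 with 2 groups, 60 with the block and 44 to 60 without 1 library, and 0 changed sign. Values near 0 did change sign: Adipor1 ran from -0.063 (without AdipoRon 1) to 0.041 with 1 library left out (-0.036 without vehicle 2) and was -0.012 with the length trend removed and -0.020 with both. Adipor2 ran from -0.069 to 0.026 (without vehicle 3; 0.012 without AdipoRon 2) and was 0.089 with total-count scaling and 0.028 without vehicle 3 and AdipoRonPEG5 1. Car3 ran from -0.47 to 0.073 and Mup2 from -0.52 to 0.013, both highest without vehicle 1, and Fabp4 0.079 and 0.089 with the length trend and with both trends removed. Fewer samples enter the fits that leave out a library; the cause of the other shifts was not tested. Depth limits genes under 0.215 CPM, the level of 3 counts in the shallowest library.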
